A study of Arabidopsis thaliana with 6 samples.

Results

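The genes described here are 131 Arabidopsis thaliana genes that the array annotation names by locus code alone and whose signals were lower after 2,4,6-trinitrotoluene (TNT), a nitroaromatic explosive, on the arrays labelled TNT replicates 1 and 3. They were chosen by a rule on measured values. A probe set had to match 1 gene with a plain locus code, its signal had to be 50 or more on every control array, and the higher of its signals on TNT replicates 1 and 3 had to be at most 0.67 times the lowest control signal. Of 22746 probe sets that are not array controls, 11933 carried such a code, 4213 of those reached 50 on every control array, and 131 (3.11%) met the ratio. The lower signals on TNT replicates 1 and 3 are therefore what chose the genes and are given as a description. The array labelled TNT replicate 2 took no part in the choice, although the control arrays it is set against did, so it is described by counts beside the same counts in other genes.

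The seedlings were of the accession Columbia (Col-0) and were raised for 13 days in shaken flasks with 100 ml of sugar-containing medium. For the TNT group the flask received 60 µM TNT carried in 60 µl of the solvent dimethyl formamide (DMF), and for the control group the same 60 µl of DMF without TNT; RNA was taken 6 h later and hybridised to Affymetrix ATH1 arrays. Each group had 3 arrays, several seedlings shared a flask, and the labels do not say whether the replicates were separate flasks, so their spread may be partly technical. The TNT array whose title has no number was taken as replicate 1.

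Plants take TNT up mainly into roots, reduce its nitro groups or join it to glutathione and sugars, and grow shorter roots in its presence. Root growth depends on the wall: extensins, arabinogalactan proteins and pectins form it, and class III peroxidases, which use hydrogen peroxide, cross-link or loosen it. Thylakoids, the membranes inside chloroplasts, hold the photosystems and their electron carriers, and many of their smaller proteins are still known only by locus code.

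On the deposited scale each array had been brought to a common mean, and the values are array signals, whose number of replicates limits the precision. The bacterial control probe sets reached at most 6.34 to 14.3, depending on the array, and no member signal lay at or under that level on its array; the lowest was 17.4. TNT replicate 2 stood apart from its group. Correlations of log2 signals were taken across the 13648 probe sets with a mean signal at or above the 40th percentile. TNT replicates 1 and 3 correlated with each other at r = 0.97. TNT replicate 2 correlated with them at 0.88 and 0.89 and with DMF replicate 2 at 0.97 (genes are not independent replicates). Whether the seedlings behind it were dosed as labelled was not tested, and every placement on it below is that of the array labelled TNT replicate 2. Results are therefore given with and without it.

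Over the members, the median signal in replicates 1, 2 and 3 was 134.5, 149.7 and 147.1 in the DMF arrays against 63.2, 136.2 and 62.7 in the TNT arrays. TNT replicates 1 and 3 were low together, and TNT replicate 2 lay among the controls. Measured as log2 signal minus the mean log2 of the 3 DMF arrays, the members' medians were -1.04, -0.03 and -1.05 on TNT replicates 1, 2 and 3. The 9578 other probe sets with every DMF signal at 50 or more had medians of -0.02, -0.01 and -0.03. The ratio used for the choice ran from 0.299 to 0.6699 with a median of 0.587, and 22 members were at 0.5 or less. TNT replicates 1 and 3 differed by no more than 1.5-fold in 118 members and by more in 13. The choice required both of these arrays to be low, and the count was not made in other probe sets. It therefore does not measure the agreement of replicates. In whole seedlings, fewer cells of a type and less RNA per cell cannot be told apart.

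**Figure D1:**
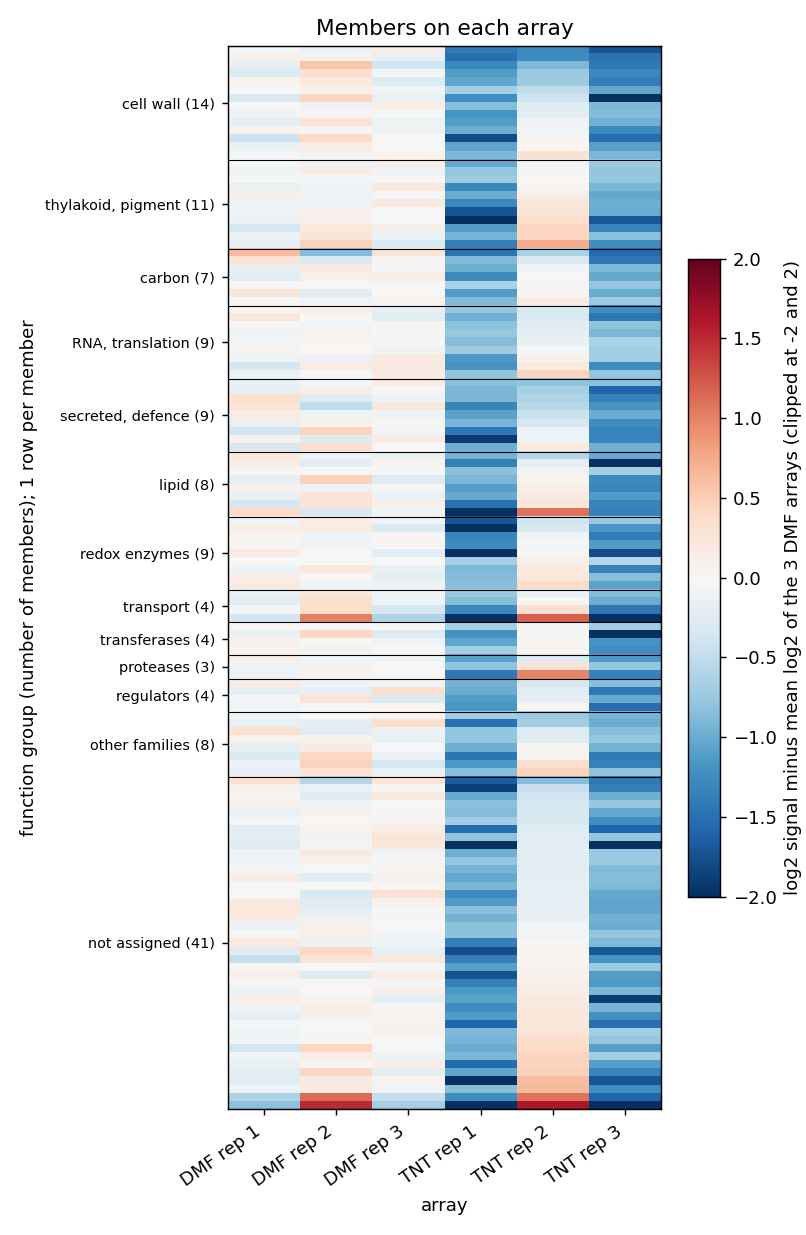
Each row is 1 of the 131 members and each column 1 array; colour gives the log2 signal minus the mean log2 of the 3 DMF arrays, clipped at -2 and 2, with members grouped by function. The columns of TNT replicates 1 and 3, which chose the members, are blue throughout (medians -1.04 and -1.05), and that of TNT replicate 2 is mixed (median -0.03).

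On TNT replicate 2, 47 of the 131 members (35.9%) lay below every DMF array, 48 lay within the DMF range and 36 (27.5%) lay above every DMF array. The background among the 9578 other probe sets was 25.6% below and 23.1% above. A TNT replicate 2 signal of at most 0.67 times the lowest DMF signal was found in 4 members (3.05%), beside 0.606% of the other probe sets. The same 47 members are those in which all 3 TNT arrays lay below all 3 DMF arrays, which held for 7.04% of the other probe sets; the choice fixed TNT replicates 1 and 3 in the members. TNT replicate 2 was below DMF replicate 2 in 76 members and at or above it in 55, a count not made in the other probe sets. The median ratio of TNT replicate 2 to DMF replicate 2 was 0.977 in the members and 0.995 in the other probe sets.

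Roles known for the genes were used to arrange 90 of the members in 12 groups, after their values had been seen; 41 were left without a role. The files give no gene descriptions, so roles are background knowledge and the groups carry no test. Cell wall members and secreted or defence-related members were mostly below the DMF range on TNT replicate 2, and thylakoid and pigment members were within or above it. The counts below, within and above were 9, 4 and 1 of 14 wall members. They were 6, 3 and 0 of 9 secreted or defence-related members and 0, 5 and 6 of 11 thylakoid members. Median differences of log2 signal on TNT replicate 2 from the DMF mean were -0.33, -0.45 and 0.24 in these groups. With quantile normalization the counts below were 8, 5 and 0, and with median centring, which moved the other probe sets to a median of -0.14, they were 12, 6 and 1. Placement below the range was not particular to the wall and the secreted or defence-related members. It was also found in 5 of 9 members of RNA metabolism and translation, 4 of 8 of other families and 2 of 4 regulators. With either scaling these last counts were 5, 4 and 3. Without DMF replicate 2 the share of all members below every remaining control was 44.3%, beside 40.1% of the other probe sets, so the distance between the shares was smaller than with all 3 controls.

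**Figure D2:**
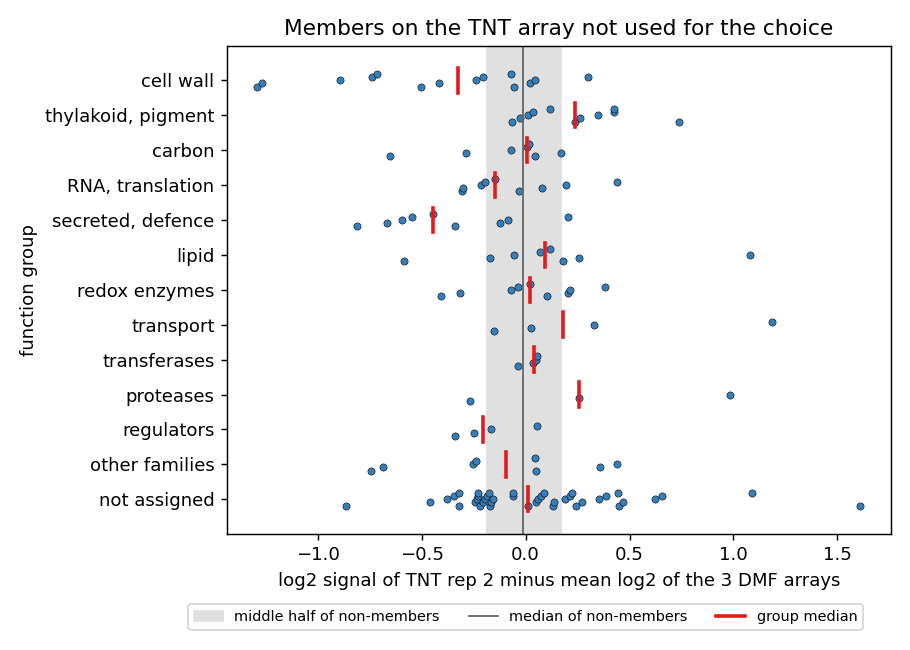
Each point is a member, placed by the log2 signal of TNT replicate 2 minus the mean log2 of the 3 DMF arrays, in rows by function group; red bars are group medians, the grey line is the median of the 9578 other probe sets and the band spans the middle 50% of them. The medians of the wall and of the secreted or defence-related members lie at -0.33 and -0.45, left of the band. The thylakoid median lies at 0.24, right of the band. The regulator median (-0.21) also lies left of the band, and the protease (0.26) and transport (0.18) medians lie right of it.

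Of the wall members, 3 encode class III peroxidases. In the values that follow, each set of 3 is in the order of replicates 1, 2 and 3. AT1G30870 had signals of 153.4, 151.9 and 128.1 in the DMF arrays against 50.8, 59.7 and 51.5 in the TNT arrays. AT4G26010 had 254.1, 240.0 and 289.2 in the DMF arrays against 99.2, 106.4 and 78.4 in the TNT arrays. In both genes all 3 TNT arrays were far below the controls, and their TNT replicate 2 signals, 0.466 and 0.443 times the lowest DMF signal, were the lowest such ratios among the members. The other peroxidase, AT5G19890, measured 116.7, 112.5 and 132.2 in the DMF arrays against 66.6, 102.0 and 64.2 in the TNT arrays, so its TNT replicate 2 signal was close under the DMF range at a ratio of 0.907.

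Extensin-like members, rod-shaped wall proteins rich in proline, were AT1G23720, AT4G08410 and AT5G06630. AT1G23720 had 178.8, 295.2 and 153.9 in the DMF arrays against 82.3, 108.1 and 74.4 in the TNT arrays. The signals of AT4G08410 were 70.1, 105.6 and 81.8 in the DMF arrays against 38.8, 50.8 and 34.5 in the TNT arrays, and those of AT5G06630 were 129.0, 141.1 and 102.1 in the DMF arrays against 59.6, 74.8 and 47.3 in the TNT arrays. In all 3 genes TNT replicate 2 was below every DMF array, at ratios of 0.702, 0.724 and 0.732. All 3 are measured by probe sets whose names mark possible matches to other transcripts, and they are the only 3 such members; how far they share signal was not tested.

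Pectin is the gel-like part of the wall. AT5G62340, of the family that inhibits invertases and pectin methylesterases, had 134.5, 238.0 and 181.9 in the DMF arrays against 51.9, 182.3 and 62.7 in the TNT arrays. AT5G04960, a pectin methylesterase, had 81.5, 134.5 and 89.7 in the DMF arrays against 42.2, 74.5 and 22.2 in the TNT arrays. TNT replicate 2 was inside the DMF range in the first and close under it in the second. The pectate lyase family members AT4G24780 and AT3G53190, which cut pectin, were at 1.03 and 1.28 times the lowest DMF signal, and the latter was the 1 wall member above every DMF array. AT3G13650, a dirigent protein of phenolic coupling, measured 82.1, 90.1 and 79.4 in the DMF arrays against 52.2, 59.0 and 40.6 in the TNT arrays, below the controls on every TNT array. AT4G16980, an arabinogalactan protein with a mean DMF signal of 1562, had 1493, 1627 and 1567 in the DMF arrays against 686.7, 1354 and 857.4 in the TNT arrays; its TNT replicate 2 lay under the DMF range at 0.907. The remaining 2 wall members, AT5G41050 and AT1G29980, secreted wall proteins, were within the DMF range on TNT replicate 2.

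**Figure D3:**
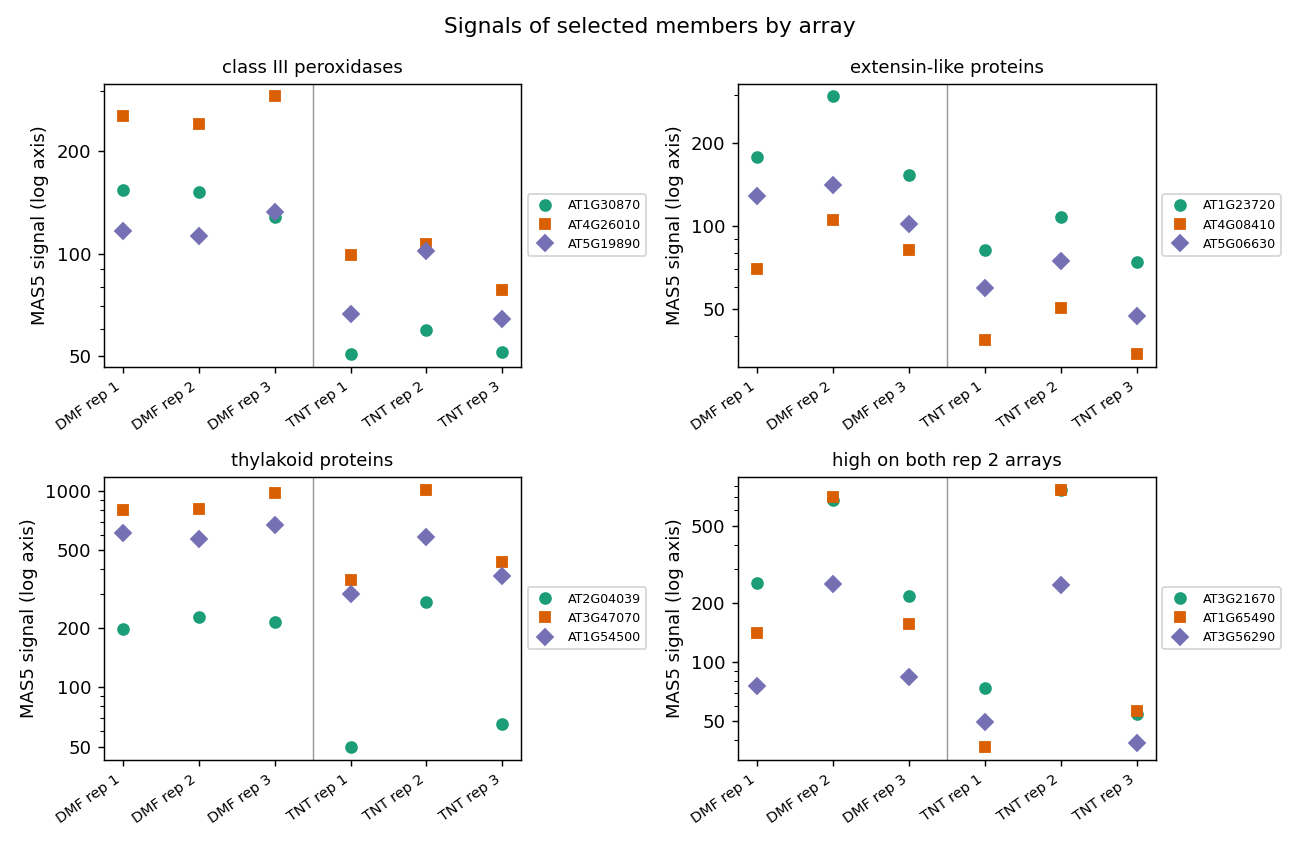
Signals (log axis) of 12 members on the 6 arrays, DMF to the left of the line and TNT to the right, in 4 panels; genes other than those named by the rule were chosen for display after their values were seen. On TNT replicate 2 the peroxidases AT1G30870 and AT4G26010 lie at 59.7 and 106.4, below their controls, while the thylakoid protein AT2G04039 and the nitrate transporter AT3G21670 lie at 272.4 and 762.3, above theirs.

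Secreted and defence-related members gave similar placements. AT2G19970, AT4G07820 and AT5G66590 belong to the CAP superfamily, secreted proteins related to the pathogenesis-related protein PR-1. AT2G19970 had 65.4, 69.2 and 82.5 in the DMF arrays against 40.2, 41.04 and 40.3 in the TNT arrays. AT4G07820 measured 608.2, 405.8 and 447.7 in the DMF arrays against 255.4, 317.8 and 188.2 in the TNT arrays, and AT5G66590 measured 76.2, 63.9 and 64.6 in the DMF arrays against 32.3, 49.9 and 34.2 in the TNT arrays. All 3 TNT arrays lay below all DMF arrays in each of these genes. AT1G14960, of the major latex protein family, had 329.6, 406.3 and 375.0 in the DMF arrays against 195.2, 232.8 and 121.6 in the TNT arrays, with no overlap between the groups. AT4G22212, a defensin-like small protein and the member with the highest mean DMF signal (1790), had 1623, 1903 and 1844 in the DMF arrays against 936.2, 1413 and 757.4 in the TNT arrays, again without overlap.

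Other members of that group included a pair of defensin-like trypsin inhibitor genes. AT2G43530 had 273.8, 217.1 and 289.6 in the DMF arrays against 68.2, 243.5 and 105.0 in the TNT arrays, and its TNT replicate 2 was among the controls. AT2G43550 had 208.4, 121.2 and 201.0 in the DMF arrays against 69.2, 117.6 and 75.9 in the TNT arrays; DMF replicate 2 was low among the controls, and TNT replicate 2 was close under it. AT5G35940, a jacalin-like lectin, measured 106.5, 188.8 and 134.5 in the DMF arrays against 51.5, 128.1 and 55.4 in the TNT arrays, and AT4G19530, of the family of TIR-type immune receptors, measured 241.8, 384.1 and 303.1 in the DMF arrays against 155.0, 350.9 and 157.1 in the TNT arrays. Both were within the DMF range on TNT replicate 2.

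Thylakoid and pigment members showed the other pattern. AT2G04039, part of the NADH dehydrogenase-like complex that serves cyclic electron flow in plastids, had 198.0, 229.4 and 214.7 in the DMF arrays against 49.8, 272.4 and 65.5 in the TNT arrays. The controls were close together, TNT replicates 1 and 3 were at most 0.331 times the lowest of them, and TNT replicate 2 was above all of them. AT3G47070, a thylakoid phosphoprotein, had 800.8, 814.7 and 983.1 in the DMF arrays against 352.4, 1017 and 437.0 in the TNT arrays. AT1G44000, a stay-green-like protein of chlorophyll breakdown, had 311.3, 477.7 and 284.9 in the DMF arrays against 134.8, 581.3 and 147.2 in the TNT arrays. In these genes too TNT replicate 2 was the highest of the 6 arrays.

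Fibrillins, lipid-binding proteins of plastoglobules and thylakoids, were represented by AT1G51110 at 90.9, 102.7 and 96.6 in the DMF arrays against 29.0, 115.8 and 48.5 in the TNT arrays and AT5G09820 at 63.8, 93.1 and 86.8 in the DMF arrays against 37.0, 107.6 and 31.7 in the TNT arrays. AT1G71810, a kinase-like plastid protein of the ABC1 family, measured 74.8, 98.7 and 74.4 in the DMF arrays against 43.2, 110.2 and 46.0 in the TNT arrays. TNT replicate 2 was above the controls in all 3 of these. The 5 thylakoid members within the DMF range on TNT replicate 2 were AT1G74070, a cyclophilin of the thylakoid lumen, AT1G77090, a PsbP domain protein, AT1G49380, of cytochrome c assembly, AT1G64680, a carotene isomerase family protein, and AT1G54500, rubredoxin-like. Of the 11, AT1G54500 had the highest ratio used for the choice (0.654), with 613.3, 567.7 and 668.6 in the DMF arrays against 301.1, 586.9 and 371.0 in the TNT arrays.

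**Figure D4:**
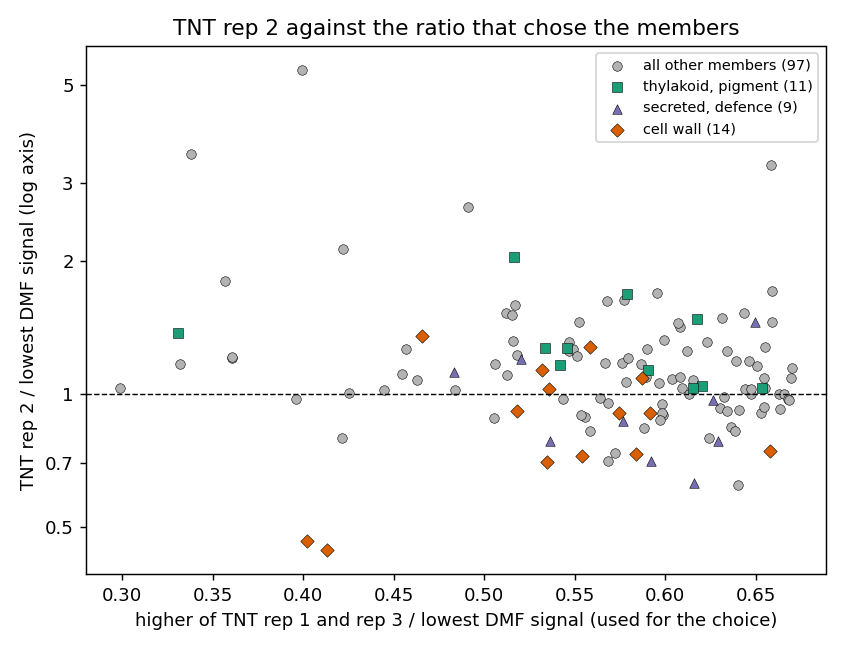
Each point is a member: the horizontal axis is the ratio that chose it (higher of TNT replicates 1 and 3 over the lowest DMF signal) and the vertical axis, on a log scale, is the signal of TNT replicate 2 over the lowest DMF signal. Most points lie near 1 on the vertical axis, the peroxidases AT1G30870 and AT4G26010 lie lowest at 0.466 and 0.443, and AT1G65490 lies highest at 5.40.

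Plastid carbon metabolism gave 7 members, with 1 below, 4 within and 2 above the DMF range on TNT replicate 2. AT5G52190, a sugar isomerase domain protein, had 124.1, 155.3 and 159.0 in the DMF arrays against 59.9, 145.8 and 71.5 in the TNT arrays. AT5G35170, a plastid adenylate kinase, had 268.4, 194.8 and 226.2 in the DMF arrays against 104.9, 235.0 and 112.9 in the TNT arrays. AT1G21440, of the phosphoenolpyruvate mutase family, had 447.1, 565.0 and 484.5 in the DMF arrays against 253.5, 472.4 and 266.7 in the TNT arrays. In each of the 3, TNT replicates 1 and 3 were low and TNT replicate 2 stood inside the DMF range. The exception below the range was AT3G48420, a sugar bisphosphate phosphatase, whose TNT replicate 2 signal of 246.4 was next to the lowest DMF signal of 246.9.

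Of 9 members of RNA metabolism and translation, 5 were below, 2 within and 2 above the DMF range on TNT replicate 2. AT5G10690, a pentatricopeptide repeat protein, a class that binds organelle transcripts, had 157.1, 133.9 and 114.6 in the DMF arrays against 68.6, 108.7 and 49.4 in the TNT arrays. AT5G10910, a ribosomal RNA methyltransferase, had 100.3, 96.0 and 103.4 in the DMF arrays against 56.5, 86.2 and 57.5 in the TNT arrays. AT5G02830, another pentatricopeptide repeat protein, had 89.1, 126.4 and 128.9 in the DMF arrays against 49.3, 129.7 and 48.1 in the TNT arrays. On TNT replicate 2 the first 2 were under the DMF range and the third just above it. AT1G31920, also a pentatricopeptide repeat protein and picked out after its values were seen, was above it too. Its TNT replicate 2 signal was 1.49 times the lowest control, beside 1.455 times in AT5G02830.

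Redox enzymes numbered 9, with 2 below, 4 within and 3 above the DMF range on TNT replicate 2. The short-chain dehydrogenases AT2G29290 and AT2G29310, similar to tropinone reductases, had 230.9, 211.0 and 178.6 in the DMF arrays against 51.0, 208.4 and 59.3 in the TNT arrays, and 235.9, 214.2 and 229.2 in the DMF arrays against 91.1, 215.4 and 85.7 in the TNT arrays. TNT replicates 1 and 3 were at most 0.332 and 0.425 times the lowest control, and TNT replicate 2 was inside the DMF range. AT1G22430, similar to alcohol dehydrogenases, had 159.9, 150.0 and 162.3 in the DMF arrays against 66.0, 153.4 and 72.6 in the TNT arrays, again with TNT replicate 2 inside it. The CC-type glutaredoxins AT4G15660 and AT4G15690, small thiol proteins, had 86.4, 87.8 and 64.9 in the DMF arrays against 17.4, 63.4 and 35.3 in the TNT arrays, and 100.0, 113.3 and 98.4 in the DMF arrays against 31.8, 78.3 and 61.4 in the TNT arrays. Both lay below the controls on all 3 TNT arrays, and TNT replicates 1 and 3 were unequal in both.

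Lipid-related members numbered 8, with 2 below, 4 within and 2 above. AT5G48490, a lipid-transfer protein, had 273.1, 166.0 and 198.2 in the DMF arrays against 46.4, 439.4 and 81.5 in the TNT arrays. Its TNT replicate 2 signal was 2.65 times the lowest control, above the whole DMF range. AT4G22610, of the lipid-transfer superfamily, had 170.7, 133.3 and 159.0 in the DMF arrays against 59.2, 136.2 and 35.3 in the TNT arrays. AT4G28780, an esterase or lipase of the GDSL type, had 82.1, 71.4 and 78.5 in the DMF arrays against 36.2, 83.6 and 31.3 in the TNT arrays. The former was inside the DMF range on TNT replicate 2 and the latter just above it.

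AT4G21650, a subtilisin-like protease, had 50.7, 57.1 and 56.1 in the DMF arrays against 20.2, 108.1 and 21.4 in the TNT arrays, so TNT replicate 2 was the highest array and TNT replicates 1 and 3 the lowest. AT5G38510, a rhomboid-like membrane protease, had 126.6, 107.1 and 108.3 in the DMF arrays against 54.1, 94.3 and 51.3 in the TNT arrays, and AT3G20015, an aspartic protease, had 121.6, 134.9 and 126.6 in the DMF arrays against 73.0, 152.4 and 74.4 in the TNT arrays. Of these 3 proteases AT5G38510 was below the DMF range on TNT replicate 2 and the others were above it. Among 4 regulators, AT2G44940, an AP2/ERF transcription factor, had 69.8, 73.3 and 74.0 in the DMF arrays against 32.3, 75.2 and 25.03 in the TNT arrays, just above the range. AT3G16560, a protein phosphatase 2C, had 138.8, 141.3 and 199.1 in the DMF arrays against 78.9, 132.4 and 58.6 in the TNT arrays, and AT1G71710, an inositol polyphosphate phosphatase, had 154.5, 130.2 and 132.4 in the DMF arrays against 71.8, 109.3 and 76.6 in the TNT arrays. Both phosphatases were under the range on TNT replicate 2.

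Of 4 enzymes that transfer acyl, acetyl or sugar groups, AT1G26220, an acetyltransferase, had 108.2, 102.1 and 95.6 in the DMF arrays against 49.0, 105.5 and 44.4 in the TNT arrays. AT5G47950, an acyltransferase of the BAHD family, had 101.7, 149.7 and 94.5 in the DMF arrays against 48.9, 115.6 and 27.8 in the TNT arrays. AT1G53290, a galactosyltransferase family protein, had 99.0, 95.4 and 98.7 in the DMF arrays against 61.8, 95.2 and 60.2 in the TNT arrays. The first 2 were inside the DMF range on TNT replicate 2 and AT1G53290 was next to its lower end. AT2G31790, a UDP-glycosyltransferase, the family that joins sugars to small molecules, had 403.3, 366.6 and 382.7 in the DMF arrays against 240.0, 398.2 and 162.4 in the TNT arrays, with TNT replicate 2 inside the range.

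Among 8 members of other families, 4 were below the DMF range on TNT replicate 2. AT5G26260, a TRAF-like domain protein, had 576.9, 604.3 and 621.3 in the DMF arrays against 369.1, 358.8 and 316.6 in the TNT arrays. It was the 1 member of the 131 in which TNT replicate 2 was not above both other TNT arrays. The choice required those 2 arrays to be low, which favours this order, and the count was not made in other probe sets. AT1G49650, a carboxylesterase, had 110.7, 108.8 and 157.0 in the DMF arrays against 44.2, 76.8 and 61.9 in the TNT arrays, also without overlap of the groups. AT3G57020, similar to strictosidine synthase, had 92.6, 149.8 and 104.1 in the DMF arrays against 41.4, 116.9 and 42.3 in the TNT arrays, and AT5G17670, an alpha/beta hydrolase, had 108.4, 162.1 and 92.0 in the DMF arrays against 53.1, 150.3 and 46.0 in the TNT arrays. In both of these TNT replicate 2 was within the DMF range.

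A few members were high on both arrays numbered 2. AT3G21670, the nitrate transporter NPF6.4, had 255.7, 672.3 and 218.0 in the DMF arrays against 73.7, 762.3 and 54.7 in the TNT arrays. AT1G65490, without a known role here, had 140.8, 699.0 and 157.0 in the DMF arrays against 36.9, 760.6 and 56.2 in the TNT arrays. AT3G56290, picked out after its values were seen, had 75.5, 252.9 and 83.9 in the DMF arrays against 49.7, 248.8 and 38.8 in the TNT arrays. In these 3, and in no other member, both arrays numbered 2 were at least 2-fold above both DMF replicates 1 and 3. Over the members, both arrays numbered 2 were above DMF replicates 1 and 3 in 36 (27.5%) and below them in 29 (22.1%); among the other probe sets the shares were 27.2% and 30.0%. AT1G13930, with a mean DMF signal of 1409, had 1692, 906.5 and 1629 in the DMF arrays against 426.4, 746.6 and 506.3 in the TNT arrays. Its DMF replicate 2 was low among the controls, and all 3 TNT arrays were lower still. AT1G19450, a sugar transporter of the ERD6-like family, had 547.7, 712.2 and 440.9 in the DMF arrays against 227.9, 699.0 and 203.7 in the TNT arrays, and AT3G51870, of the mitochondrial carrier family, had 247.3, 358.2 and 270.7 in the DMF arrays against 159.8, 293.9 and 144.8 in the TNT arrays. DMF replicate 2 was the highest array in each and TNT replicate 2 the next.

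The 41 members without a role included the one with the lowest ratio of all. AT3G22210 had 375.6, 474.7 and 526.8 in the DMF arrays against 69.9, 388.0 and 112.2 in the TNT arrays, so TNT replicates 1 and 3 were at most 0.299 times the lowest control and TNT replicate 2 was inside the DMF range. AT5G01015 had 88.8, 116.7 and 109.1 in the DMF arrays against 21.9, 160.2 and 31.7 in the TNT arrays, AT2G04790 had 73.4, 113.8 and 74.8 in the DMF arrays against 25.02, 88.4 and 26.5 in the TNT arrays and AT5G62140 had 55.4, 55.8 and 59.4 in the DMF arrays against 19.0, 67.3 and 20.0 in the TNT arrays. TNT replicate 2 was above the controls in AT5G01015 and AT5G62140 and inside the range in AT2G04790. AT2G36145 had 114.4, 138.6 and 146.0 in the DMF arrays against 45.3, 111.7 and 43.7 in the TNT arrays, just under the range. The members AT5G56850, AT1G14345, AT4G34090 and AT3G12685 were above it, at 1.69, 1.51, 1.32 and 1.46 times the lowest DMF signal. AT5G38980 had 981.9, 1044 and 1123 in the DMF arrays against 472.9, 1151 and 556.5 in the TNT arrays, and TNT replicate 2 was the highest of its 6 arrays. The 41 divided into 13 below, 13 within and 15 above.

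Some members lie close together on a chromosome. In the RefSeq annotation 6 pairs had at most 5 protein-coding genes between them. How many such pairs other genes of the same number would give was not counted. AT2G29290 and AT2G29310 are separated by 1 gene, AT2G29300, whose ratio was 1.56 at a lowest DMF signal of 11.7; AT2G29320, the next locus code, missed the choice with a ratio of 0.671. The glutaredoxins AT4G15660 and AT4G15690 are separated by 2 genes, of which AT4G15680 had a ratio of 0.711. AT2G43530 and AT2G43550 are also separated by 2 genes, and these measured ratios of 0.856 and 2.83. The remaining pairs were AT3G56290 and AT3G56330, AT4G28740 and AT4G28780, and AT5G17630 and AT5G17670. The measured genes between them had ratios of 1.02 to 1.80. The share of eligible genes that were members ran from 2.81% on chromosome 2 to 3.29% on chromosome 5. Coordinates are not given, since no genome build is named in the sources used here.

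A second probe set was present for 3 members. For AT1G51110 it gave 157.2, 140.6 and 129.7 in the DMF arrays against 96.5, 136.9 and 64.5 in the TNT arrays, lower on TNT replicates 1 and 3 but at a ratio of 0.744. For AT1G31710, a copper amine oxidase, it gave 24.1, 52.6 and 65.6 in the DMF arrays against 23.6, 47.1 and 43.9 in the TNT arrays, where the groups overlapped. The second probe set of AT4G16980 was near background, with 12.9, 31.0 and 8.50 with DMF, and was not tested.

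At the edge of the ratio, AT4G11175, a plastid translation initiation factor, and AT2G36690, a dioxygenase, entered at ratios of 0.6699 and 0.6693, while AT2G30600 at 0.67002 and AT2G29320 at 0.671 did not. At the edge of the signal floor, AT4G21650 and AT5G44410, an oxidase similar to berberine bridge enzyme, entered with lowest DMF signals of 50.7 and 50.8. AT2G16980 and AT5G02230 missed it at 49.6 and 48.7.

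TNT minus DMF was tested with limma over the 13648 probe sets that passed the filter on low signal, adjusted by the Benjamini-Hochberg method. With all 6 arrays 0 members were called, beside a percentage of 0 called lower among all probe sets tested. An unadjusted limma p under 0.05 was found in 69 members and, in either direction, in 1202 of all probe sets tested. The choice of members used all of these arrays but TNT replicate 2, so the 69 is no result about them. All 131 members passed the filter. Without TNT replicate 2, 121 members were called, beside 3.33% called lower among all tested, which the choice of members on the same arrays makes no result about them. Without both arrays numbered 2 the number was 123, beside 5.06% called lower and 10.4% called in either direction. The members' log2 differences over all 6 arrays had a median of -0.73 and ran from -1.65 to -0.38.

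Lists of other genes with related roles were matched to symbols and synonyms, and 14 of 21 had at least 1 tested gene. Of their 127 genes, limma called 0 with all 6 arrays, and 16 had an unadjusted p under 0.05. Without TNT replicate 2, the wall and root hair list had 5 of 18 lower, 0 higher and a median log2 difference of -0.65, beside 3.33% lower and 7.23% in either direction among all probe sets tested. HRGP1, a hydroxyproline-rich wall protein, had 283.0, 405.5 and 234.5 in the DMF arrays against 97.6, 129.5 and 93.7 in the TNT arrays, so TNT replicate 2 was below the controls, as in the extensin-like members. Its log2 difference without TNT replicate 2 was -1.65 ± 0.23 (SE; limma adjusted p = 0.00743), and with all 6 arrays it was -1.50 (adjusted p = 0.336). XTH16, a xyloglucan endotransglucosylase, was also called lower without TNT replicate 2 but had its highest signal there, 229.3 against 130.0 to 147.0 with DMF. Of the list's 13 genes with every DMF signal at 50 or more, 3 were below every DMF array on TNT replicate 2. The share among non-member probe sets at that signal level was 25.6%. Over the 18 tested genes the median log2 difference of TNT replicate 2 from the DMF mean was 0.13.

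The peroxidase list had 3 of 5 higher and 0 lower without TNT replicate 2; the direction of the peroxidases among the members was fixed by their choice on the same arrays. AT5G64120 had 200.8, 120.5 and 341.4 in the DMF arrays against 799.5, 129.2 and 856.9 in the TNT arrays. Its TNT replicate 2 signal was among the controls, whereas that of AT1G30870 and AT4G26010 was below them. Of the 4 list peroxidases with every DMF signal at 50 or more, 3 were also below every DMF array on TNT replicate 2. The share among non-member probe sets at that signal level was 25.6%. Nuclear photosynthesis genes had 3 of 14 lower and 0 higher, among them NdhN, of the same complex as AT2G04039, with 204.8, 187.4 and 204.2 in the DMF arrays against 71.2, 195.3 and 58.1 in the TNT arrays. In NdhN, as in all 11 thylakoid members, TNT replicate 2 was not below the controls. PRK and SBPASE, the other genes called lower, were close under every DMF array there. They measured 1510 and 1088, against lowest DMF signals of 1524 and 1140. Of the 14 nuclear photosynthesis genes, 4 were below every DMF array on TNT replicate 2. The chloroplast list had 0 of 16 called in either direction without TNT replicate 2, with a median log2 difference of 0.0032. On TNT replicate 2, 6 of these 16 were below every DMF array.

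Of the listed root and shoot markers, 3 of each matched a tested gene, and most were not matched. The summed signal of 3 root markers was 2826 to 3441 with DMF and 2690 to 3268 with TNT; PYK10, the most abundant, had a log2 difference of 0.01 without TNT replicate 2, while the root hair expansins EXPA18 and EXPA7 stood at -1.35 and -1.22, of which EXPA18 passed. The summed signal of 3 shoot markers was 4484 to 5095 with DMF and 3225 to 4042 with TNT. Without TNT replicate 2, limma called 2 of the 3 lower: PRK, a Calvin cycle kinase, by a log2 difference of -0.71 (adjusted p = 0.0330) and STOMAGEN, a leaf signal peptide, by -1.26 (adjusted p = 0.0149). RCA, at -0.30, did not pass. The longer lists differed less: without TNT replicate 2 the median log2 difference was -0.22 in the 14 nuclear photosynthesis genes, which include PRK and RCA. It was 0.0032 in the 16 chloroplast genes. The part of tissue proportions in the wall and thylakoid values was not tested.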

How the data were processed

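Affymetrix ATH1 signals of 6 arrays, 3 per group, were used. Per the submitters' processing notes the deposited intensity values were made with MAS5 and GCOS; their versions are not given in the sources used here. On each array the mean without the top and bottom 2% of values was 100.01, and no further normalization was applied. Probe sets were named from the platform annotation: 13513 had 1 gene, 503 several and 8730 none, and 13436 of the first matched RefSeq.

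TNT minus DMF was tested on log2 signals with limma 3.58.1 in R 4.3.3 (lmFit and eBayes with an intensity trend, 2-sided, Benjamini-Hochberg, threshold 0.05), after checking on simulated data, over the probe sets with a mean signal at or above the 40th percentile. The wording of that filter allows the mean of signals or of log2 signals; both counts had been seen, the mean of signals was kept as the literal reading, and the other was added as an alternative. Members and lists were chosen with earlier results of these data known, and function groups after values were seen. Genes were named by lowest ratio, group, placement on TNT replicate 2, highest control mean and closeness to a threshold; any others shown were chosen after their values were seen. Same-numbered arrays deviated together from their group means (correlations of 0.54, 0.47 and 0.42). Among the DMF arrays, TNT replicates 1, 2 and 3 each correlated most with the one of the same number (0.92, 0.97 and 0.92). Deviations cancel out within each group and the number of the TNT array without one was assumed, so these values do not establish a pairing. Sequences were not used here.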

Additional observations from a re-analysis of the deposited data

How the results depend on the processing

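With all 6 arrays 0 probe sets, 0 members and 0 list genes were called, and the counts stayed at 0 without the filter, with an offset of 16, quantile normalization, median centring, the filter on the mean of log2 signals and the replicate block, under which 0 were called. Array weights, which gave TNT replicate 2 a weight of 0.26 and DMF replicate 3 one of 5.04, called 2949 probe sets, 129 members and 40 list genes. With single arrays left out the counts ranged from 0 to 987, 0 to 121 and 0 to 17; the highest came without TNT replicate 2, and 3 probe sets were called without DMF replicate 2. The filter on the mean of log2 signals together with leaving out TNT replicate 2, added after the data were seen, gave 947, 121 and 17. Without both arrays numbered 2 the counts were 1419, 123 and 27. The cause of these changes was not tested.

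The rule gave 81 members with every control signal at 100 or more, 22 with a ratio of 0.5 or less, 135 after quantile normalization (120 of them shared) and 96 after median centring (85 shared). Members below every control on TNT replicate 2 numbered 46 and 54 under those scalings, 52 to 58 with 1 DMF array left out, 29 of the 81 and 4 of the 22; fewer members were counted in the last 2. Beside 35.9% of members and 25.6% of other probe sets with all controls, the shares were 35.1% and 26.9% with quantile normalization, 41.2% and 30.0% with median centring, and 40.5% and 32.1%, 44.3% and 40.1%, and 39.7% and 30.9% without DMF replicates 1, 2 and 3. The members' median log2 difference on TNT replicate 2 ran from -0.16 to 0.03, and was -0.03 with DMF replicate 2 alone as the reference. With 3 arrays a group and 1 standing apart, small differences are not resolved.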
